A study of Mus musculus with 16 samples.

Results

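Nr2f1, Nr2f2 and Nr2e1 are 3 mouse genes of orphan nuclear receptors, and they were chosen from the 22350 protein-coding genes of the annotation because the peaks of the total Jarid2 and Jarid2-K116me2 lists form broad domains over them. The rule took each peak that overlapped one of the genes or lay within 20 kb of it in mm9, which gave 11 of 4992 peaks for Jarid2 and 18 of 4502 for Jarid2-K116me2. Position, number, width and score of these peaks made the choice, so they are given as a description and without a test. ChIP-seq of Jarid2 and of Jarid2 di-methylated at K116 was performed in 1 sample each of E14, a mouse embryonic stem cell (ESC) line grown in serum with LIF. H3K27me3 was profiled in 12 libraries that all derive from Jarid2-/- ESC, either without rescue or rescued with a BAC (a large genomic transgene) that carries wild-type Jarid2 or the K116A mutant, in which alanine replaces the lysine. Each of these 3 lines was profiled as undifferentiated ESC and as embryoid bodies (EBs) at day 8, grown by the hanging drop method without LIF, with 2 replicates per group. EBs are mixtures of differentiating cells, so fewer cells with the mark and less of the mark per cell cannot be told apart.

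Nr2f1 and Nr2f2 encode COUP-TFI and COUP-TFII, transcription factors with roles in neural, vascular and mesodermal development, and Nr2e1 encodes Tlx, which maintains neural stem cells in the brain and retina. No physiological ligand is firmly established for these receptors, hence the term orphan. In ESC such developmental genes are typical targets of Polycomb repressive complex 2 (PRC2), which deposits H3K27me3, and Jarid2 is a cofactor of PRC2 that is itself methylated by the complex at K116. The H3K27me3 libraries ask whether the mark at these genes depends on Jarid2 or on its K116, and the peak lists ask where the methylated form of Jarid2 sits relative to total Jarid2.

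The deposited lists hold regions and scores but no read counts. The study states the reads kept for each H3K27me3 library, and these totals are not used in any value here. By them, both K116A rescue EB libraries and both Jarid2-/- EB libraries were deeper than both WT rescue EB libraries. The H3K27me3 libraries differed widely in what was called. They held between 1478 and 14125 regions, which covered from 2.31 to 55.03 Mb of the genome. Replicate 1 of the WT rescue ESC stood apart with the lowest value of both, although the stated total is the highest of the ESC libraries, and in ESC each replicate 1 had fewer regions than its replicate 2. The lists hold no gene expression, hence the loss of Jarid2 and the identity of the cells were not checked here.

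At Nr2f1 (ENSMUSG00000069171.7, chr13:78328234-78339018, minus strand), Jarid2 formed 9 peaks and Jarid2-K116me2 formed 6. The Jarid2 peaks spanned 41432 bp, from 12929 bp upstream to 28502 bp downstream of the gene's start, thus far past the end of the gene, and 31871 bp of the span lay inside a peak. The Jarid2-K116me2 peaks spanned a near-equal 40690 bp but covered only 21661 bp of it. Upstream the Jarid2 domain reached 812 bp further, and downstream the Jarid2-K116me2 domain reached 70 bp further. The Jarid2 peak over the start was 8782 bp wide and scored 3100, and that of Jarid2-K116me2 was 7839 bp wide and scored the same. The score is minus 10 times the log10 of the peak's p-value, as the peak caller wrote it, and 719 Jarid2 peaks and 906 Jarid2-K116me2 peaks share the value 3100, so it ranks the strongest peaks poorly. A pair of lincRNA genes of the opposite strand overlap the 5′ end of Nr2f1: Gm8327 starts 19 bp and A830082K12Rik 1740 bp inside it. Reads at this promoter can belong to either gene.

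Nr2f1 was the only one of the 3 genes with Jarid2-only peaks, which overlap no Jarid2-K116me2 peak. There were 4 of them, and all 4 lay between peaks common to both lists, none at the outer edge of the domain. Their scores were 83.48, 70.63, 405.73 and 82.38, and their widths 816, 709, 2754 and 791 bp. Of the 1045 Jarid2-only peaks in the list, which make up 20.9% of the Jarid2 peaks, only 9 scored above the 405.73 of the Nr2f1 peak. The other 3 scored below 91.86, the lowest score in the Jarid2-K116me2 list, so with the same lowest score in both lists 1 Jarid2-only peak remained at the gene. That peak lay 12357 to 15110 bp downstream of the start, past the end of the gene. No peak of the Jarid2-K116me2 list was without Jarid2 at any of the 3 genes, against 60 in the whole list.

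**Figure D1:**
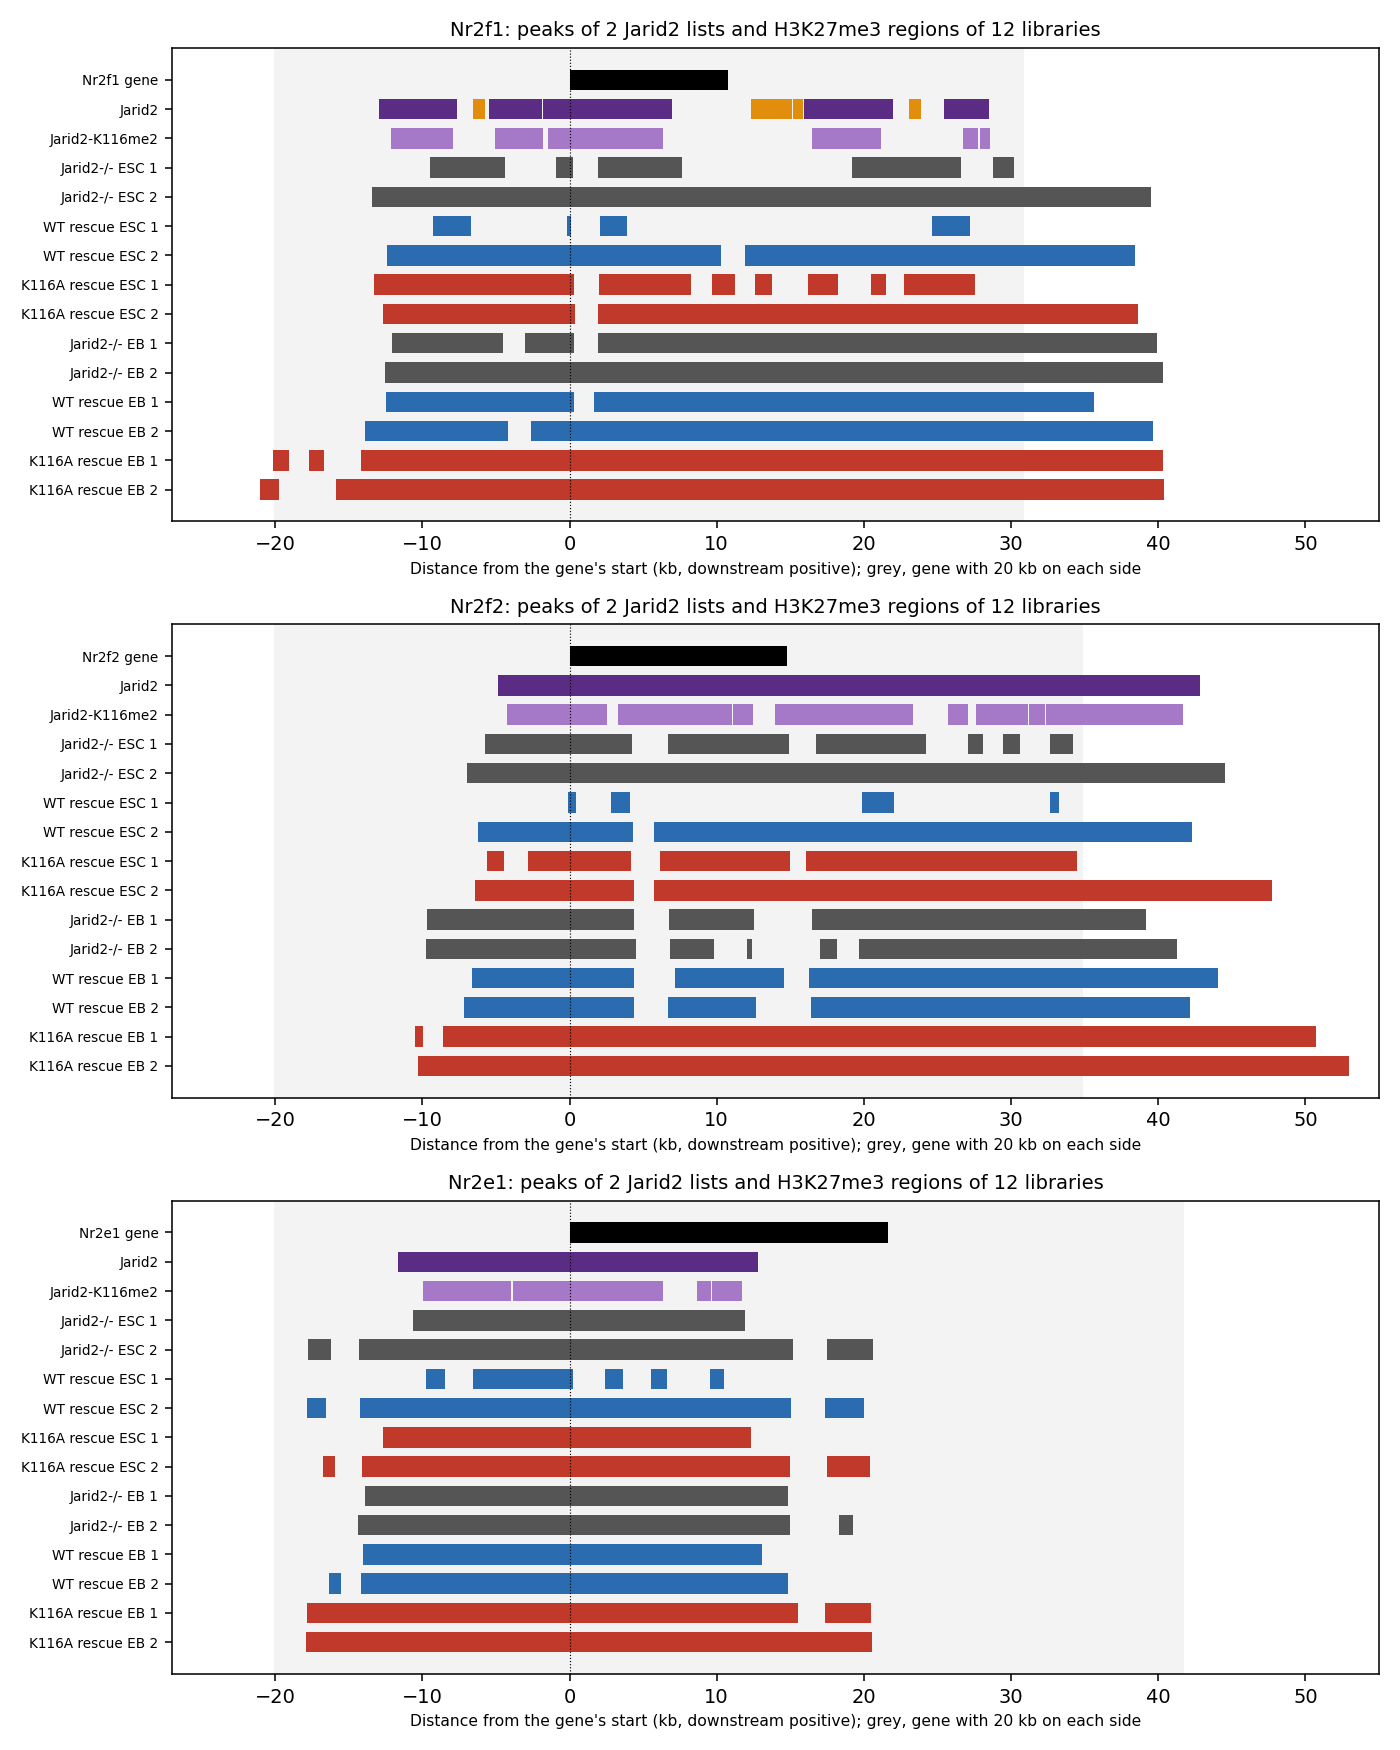
Map of Nr2f1, Nr2f2 and Nr2e1. The x axis is the distance from the gene's start in kb with the direction of transcription to the right, the black bar is the gene, purple bars are Jarid2 peaks (dark) and Jarid2-K116me2 peaks (light), orange bars are the 4 Jarid2-only peaks, and each further row holds the H3K27me3 regions of 1 library that reach into the grey window (the gene with 20 kb on each side). Nr2f2 and Nr2e1 have 1 unbroken Jarid2 peak each, and the K116A rescue EBs have the widest H3K27me3 regions at the 3 genes.

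The domain at Nr2f2 (ENSMUSG00000030551.7, chr7:77496832-77511621, minus strand) was built the other way round. Jarid2 formed a single peak of 47670 bp with a score of 3042.91, the 5th widest of the list, whereas Jarid2-K116me2 formed 8 peaks with scores from 204.85 to 3100. All 8 lay inside the Jarid2 peak, covered 40604 bp of it and were separated by gaps of 28 to 2421 bp. The Jarid2 peak reached from 4836 bp upstream to 42833 bp downstream of the start of the longer transcript, so most of it lay past the end of the gene. It also held the start of the shorter transcript, 6142 bp further downstream. The outer ends of the Jarid2-K116me2 domain fell 582 and 1128 bp short of the Jarid2 peak. B130024G19Rik, the nearest other gene, starts 19797 bp upstream of Nr2f2 and outside this peak.

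Nr2e1 (ENSMUSG00000019803.5, chr10:42281769-42303438, minus strand) also lay under 1 Jarid2 peak, which was 24405 bp wide, the 12th widest of the list, and scored 3100. Jarid2-K116me2 formed 4 peaks over it with scores from 165.23 to 3100, and these covered 19124 bp. Here the domain was centred on the start, from 11625 bp upstream to 12779 bp downstream, and its ends exceeded those of Jarid2-K116me2 by 1651 and 1062 bp. Ostm1, a gene needed for bone resorption, starts 190 bp away on the other strand, so the upstream part of the domain lies over Ostm1.

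Across the 3 genes, the bases covered by Jarid2 exceeded those covered by Jarid2-K116me2 by a ratio of 1.47 at Nr2f1, 1.17 at Nr2f2 and 1.28 at Nr2e1. The domains differed in covered bases by 10210, 7066 and 5281 bp and in span by 742, 1710 and 2713 bp, so most of the difference at Nr2f1 and Nr2f2 lay in gaps inside the domain. With 1 sample per antibody this ratio has no error. Among the 5381 protein-coding genes with a Jarid2 peak in the same kind of window, Nr2f2 ranked 42nd, Nr2f1 70th and Nr2e1 109th by the width of the Jarid2 peaks, where the median gene had 2414 bp. By the number of peaks Nr2f1 ranked 14th, with 9 against a median of 1. The number of peaks and the covered width therefore ordered the genes differently. Wide Jarid2 peaks that cover 4 or more Jarid2-K116me2 peaks numbered 43 in the list, and those at Nr2f2 and Nr2e1 were among them. Just outside the 20 kb limit, 1 Jarid2 peak scoring 916.87 lay 23432 bp from Nr2f1, a Jarid2-only peak scoring 147.58 lay 27530 bp from Nr2e1, and a peak scoring 1366.86 lay 29071 bp from Nr2e1.

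The sequence next to the start differed between the genes. The bases upstream of the Nr2f1 and Nr2e1 starts are shown, and both lie inside peaks of both lists. Those upstream of the longer Nr2f2 transcript also do and are not shown. The sequences shown are read on the minus strand of mm9, 5′ to 3′ towards the gene, with each CpG in capitals. The stretch at Nr2e1 ends before the Ostm1 UTR.
Nr2f1, chr13:78339019-78339268: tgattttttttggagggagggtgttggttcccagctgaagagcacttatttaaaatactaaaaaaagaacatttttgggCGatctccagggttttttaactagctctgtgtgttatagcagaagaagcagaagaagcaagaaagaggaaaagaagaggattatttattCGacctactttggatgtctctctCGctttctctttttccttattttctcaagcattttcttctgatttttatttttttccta
Nr2e1, chr10:42303439-42303640: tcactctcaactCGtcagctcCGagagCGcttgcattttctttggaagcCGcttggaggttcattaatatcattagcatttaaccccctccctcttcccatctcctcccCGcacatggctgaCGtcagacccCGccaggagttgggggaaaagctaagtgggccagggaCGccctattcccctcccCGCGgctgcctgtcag
Over 250 bases, the Nr2f1 promoter held 3 CpG, that of the longer Nr2f2 transcript 1 and that of Nr2e1 17, where the median protein-coding promoter held 8. The GC content was 35.2% at Nr2f1 and 59.6% at Nr2e1, against a median of 54.0%. None of these 3 promoters had a match on either strand to AGGTCA, the core element that COUP-TF proteins bind, to AAGTCA, that of Tlx, to CGGCGG or to TATAAA. Of all 22350 promoters of this length, 12.55%, 11.97%, 17.0% and 12.3% held these motifs, so no match is the usual case.

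Among 49 nuclear receptor genes of the mouse, all of which were found in the annotation, 23 had a Jarid2 peak over or within 1 kb of a transcription start, where 15.4% of all protein-coding genes did. For Jarid2-K116me2 it was 21 of 49, against 13.7%. Within 20 kb of the gene, 29 had a Jarid2 peak and 26 a Jarid2-K116me2 peak, against 24.1% and 21.2% of protein-coding genes. The 3 genes had the widest Jarid2 coverage of the 49. The genes with 3 or more Jarid2 peaks were Nr2f1, Ppara, Esrrg and Nr4a2, where 2.08% of protein-coding genes had as many. Next by width, named after their values were seen, came Nr4a2, a factor of dopaminergic neurons, with 18101 bp, Esrrg, a receptor of energy metabolism, with 10805 bp, and Nr4a3 with 9693 bp. The other receptors of the NR2 subfamily did not share the broad domains. Nr2c1, Nr2c2, Nr2e3, Hnf4a, Hnf4g and Rxrb had no peak of either list. Nr2f6 had 2 Jarid2 peaks of 1685 bp in all and none of Jarid2-K116me2. Rxra had 2 peaks of each list, with 2002 bp of Jarid2 in all, and Rxrg had 1 of each, with 2133 bp of Jarid2. The list of 49 receptors was drawn up with the results for the 3 genes known.

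**Figure D2:**
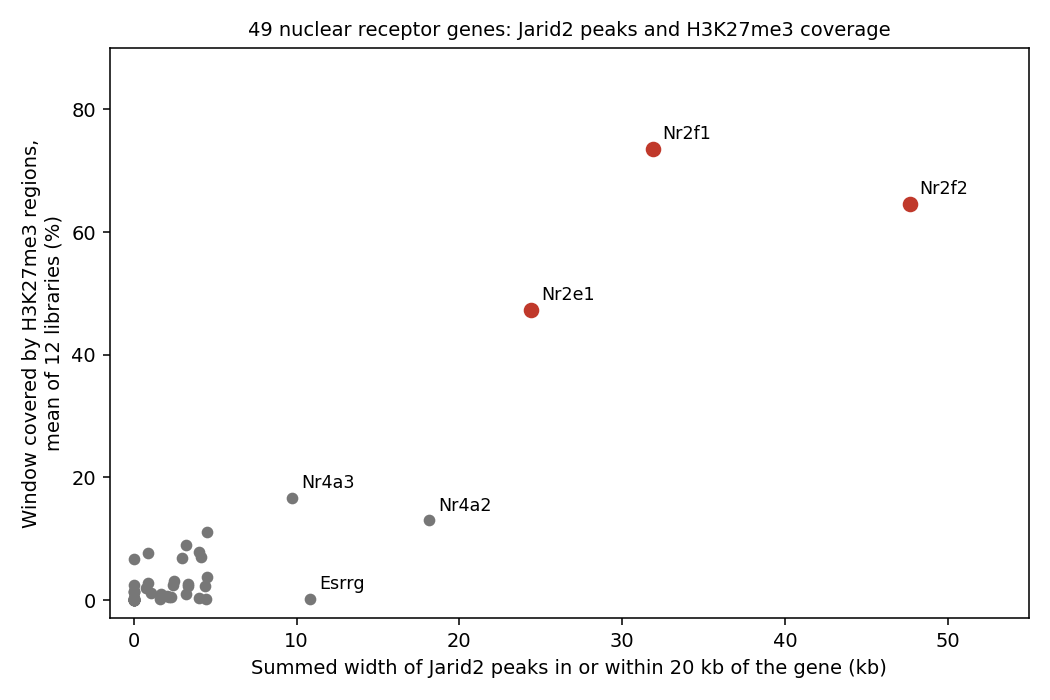
Each point is 1 of 49 nuclear receptor genes. The x axis is the summed width of its Jarid2 peaks in kb, and the y axis is the percentage of the gene with 20 kb on each side that H3K27me3 regions covered, as a mean of 12 libraries. Longer genes have longer windows, which lowers the percentage for the same covered bases. Nr2f1, Nr2f2 and Nr2e1 (red) lie apart at 73.5%, 64.6% and 47.3%, and the next gene, Nr4a3, is at 16.6%.

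H3K27me3, which played no part in the choice, was found at the 3 genes in each of the 12 libraries, the Jarid2-/- libraries included. The mark was measured as the percentage of the window, the gene with 20 kb on each side, that lay inside the called regions. As a mean over the libraries it was 73.5% at Nr2f1, 64.6% at Nr2f2 and 47.3% at Nr2e1, which placed them 43rd, 51st and 91st of the 7764 windows that were covered by 1% or more. Among the nuclear receptors the next were Nr4a3 with 16.6% and Nr4a2 with 12.97%. Esrrg, with the 5th widest Jarid2 coverage, had 0.185%, but its window is far longer. Its Jarid2 peaks span 394911 bp, against whole windows of 50785 to 61670 bp at the 3 genes, so these percentages cannot be compared. In the Jarid2-/- EBs, 87.4% and 98.8% of the bases of the Nr2f1 Jarid2 peaks lay in H3K27me3 regions, 81.7% and 74.4% of those of Nr2f2, and 100% of those of Nr2e1 in both libraries. In EBs the regions ran past the Jarid2 domain on both sides at Nr2e1 and on the downstream side at Nr2f1, as the map shows. The same was seen in replicate 2 of each ESC line.

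At Nr2f1, the covered percentage in replicates 1 and 2 was 41.0% and 87.1% in Jarid2-/- ESC, 14.5% and 81.8% in WT rescue ESC, and 59.9% and 82.5% in K116A rescue ESC. In EBs it was 78.2% and 85.3% without rescue, 82.4% and 85.0% with WT rescue, and 92.3% and 92.4% with K116A rescue. The ESC libraries were spread over most of the scale and overlapped the EB libraries, which lay close together. At none of the 3 genes did all 6 EB libraries lie above all 6 ESC libraries, as they did in 10.1% of windows. At Nr2f2 the same order gave 53.9% and 76.2%, 8.33% and 72.2%, and 64.4% and 72.8% in ESC. The EB values were 69.8% and 61.9%, 67.4% and 65.5%, and 80.1% and 82.2%. Of the EB libraries at Nr2f2, only the K116A rescue EBs lay above all the ESC libraries. At Nr2e1 the ESC values were 36.5% and 55.6%, 18.4% and 53.9%, and 40.6% and 53.1%, and the EB values were 46.7% and 49.2%, 43.9% and 48.4%, and 59.2% and 62.3%. All 3 genes had their lowest value in replicate 1 of the WT rescue ESC.

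**Figure D3:**
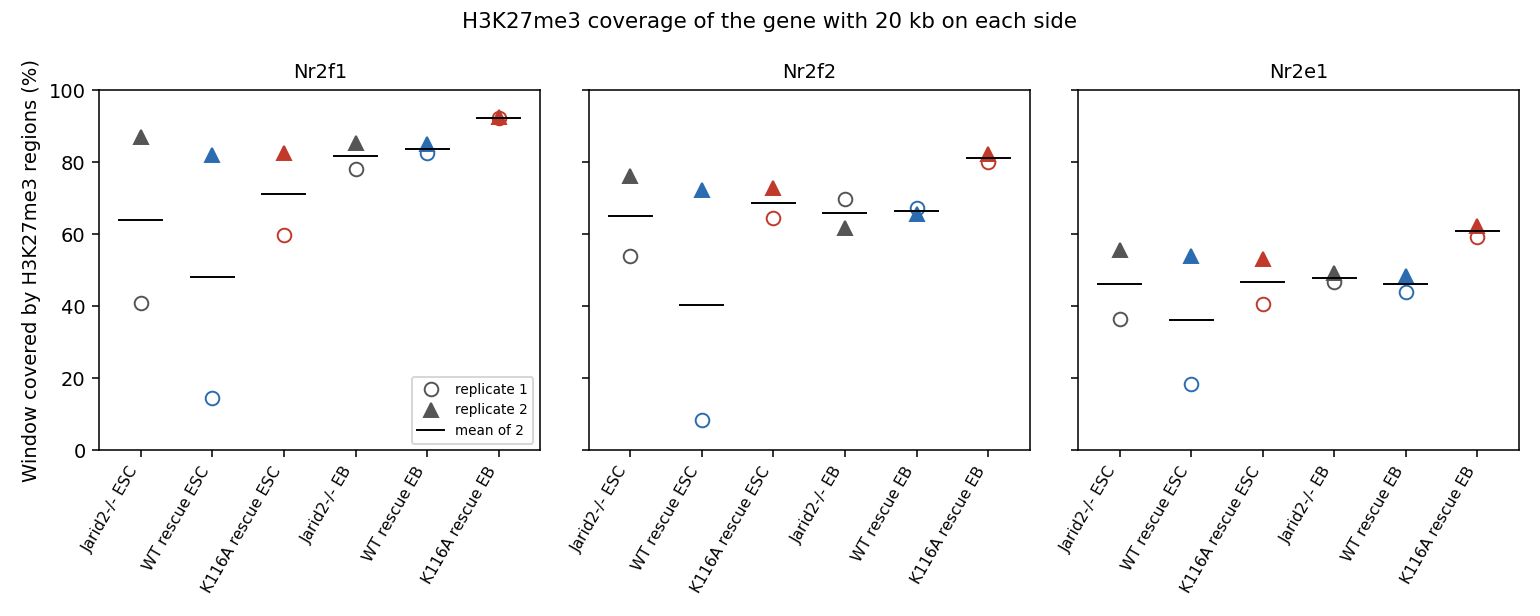
Percentage of the window covered by H3K27me3 regions at Nr2f1, Nr2f2 and Nr2e1 (y axis) in each of 6 groups (x axis). Open circles are replicate 1, filled triangles replicate 2 and lines the mean of the 2. Replicate 1 of the WT rescue ESC is lowest at each gene, with 14.5%, 8.33% and 18.4%, and both K116A rescue EB libraries are highest.

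The mean covered percentage of the 3 EB groups exceeded that of the 3 ESC groups by 24.8 ± 12.3 points (difference ± SE) at Nr2f1, 13.2 ± 10.9 at Nr2f2 and 8.60 ± 8.61 at Nr2e1. None of these differences passed the test (limma with Benjamini-Hochberg adjustment over all windows, adjusted p = 0.13, 0.34 and 0.43). Over all windows, 36.3% were called higher and 1.03% lower in EBs, 37.3% in all, with a median difference of 3.03 points. The difference was larger in replicate 1, where EBs exceeded ESC by 45.8 points at Nr2f1, 30.2 at Nr2f2 and 18.1 at Nr2e1. In replicate 2 alone the differences were 3.75, -3.84 and -0.91 points. Without replicate 1 of the WT rescue ESC the fit gave 13.6, 2.54 and 2.69 points (adjusted p = 0.24, 0.70 and 0.72), and without its replicate 2 it gave 36.0, 23.8 and 14.5 points, of which Nr2f1 and Nr2f2 passed (adjusted p = 0.016 and 0.012) and Nr2e1 did not (adjusted p = 0.065). The call at Nr2f1 and Nr2f2 therefore depended on which library of the WT rescue ESC was used. Divided by the share of the genome that each library covered, the values were -35.4, -40.5 and -48.1, none of which passed either (limma, adjusted p = 0.42, 0.32 and 0.20). This scale raises most the library with the least called, replicate 1 of the WT rescue ESC with 2.31 Mb. Why the sign changed on this scale was not tested, so this scale cannot decide the direction.

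In ESC, loss of Jarid2 and the K116A mutation could not be separated from the spread of the libraries. Compared with the WT rescue, Jarid2-/- ESC differed by 15.9 ± 21.3 points at Nr2f1, 24.8 ± 19.0 at Nr2f2 and 9.88 ± 14.9 at Nr2e1, and K116A rescue ESC by 23.0 ± 21.3, 28.3 ± 19.0 and 10.7 ± 14.9 (limma, adjusted p = 1 for all 6). No window passed either comparison, and 5 and 25 windows had an unadjusted p under 0.05. The SD over 2 libraries was 47.6, 45.2 and 25.1 points in the WT rescue ESC at the 3 genes, 32.6, 15.8 and 13.5 in Jarid2-/- ESC and 16.0, 5.89 and 8.87 in K116A rescue ESC. In replicate 2, the values of the 3 lines in ESC lay between 81.8% and 87.1% at Nr2f1, between 72.2% and 76.2% at Nr2f2, and between 53.1% and 55.6% at Nr2e1. Without replicate 1 of the WT rescue ESC all 6 differences turned negative, from -3.61 to -17.8 points.

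In EBs the replicates lay much closer. The covered percentage at Nr2f1 was 81.8 ± 5.04 (SD, n = 2) without rescue, 83.7 ± 1.79 with WT rescue and 92.4 ± 0.095 with K116A rescue. At Nr2f2 it was 65.8 ± 5.63, 66.4 ± 1.30 and 81.2 ± 1.498, and at Nr2e1 47.9 ± 1.77, 46.2 ± 3.16 and 60.8 ± 2.17. Jarid2-/- EBs and WT rescue EBs overlapped at each gene, and their means differed by -1.94, -0.60 and 1.72 points, while over all windows 25.9% were called higher and 0.0773% lower in Jarid2-/- EBs. Both K116A rescue EB libraries lay above the 10 other libraries at each of the 3 genes, a pattern found in 4.93% of all windows. They thus lay above the 4 other EB libraries, as in 10.1% of windows, and above both WT rescue EB libraries, as in 35.5% of windows. The differences to the WT rescue EBs were 8.67, 14.7 and 14.6 points.

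These differences did not pass in the fit over all 12 libraries, which shares 1 estimate of the spread between ESC and EB libraries (limma, adjusted p = 1 at the 3 genes); 0.554% of windows were called higher and 0.0258% lower, 0.58% in all. Fitted on the 6 EB libraries alone, an alternative chosen after seeing the data, the SE fell to 2.52, 2.89 and 2.68 points, and the adjusted p was 0.30, 0.17 and 0.16. Divided by the share of the genome covered in each library, the differences were -18.1, -8.13 and -1.94. As percentile ranks within each library, also chosen after seeing the data, they were -0.036, -0.0045 and -0.027 points. None of these passed (limma, adjusted p = 1). Ranks leave little room for a rise, since the genes ranked 43rd, 51st and 91st of 7764 by coverage, and cannot decide the direction. Before scaling, the WT rescue EBs covered 83.7% at Nr2f1, 66.4% at Nr2f2 and 46.2% at Nr2e1. Why the scaled differences were negative was not tested, so they cannot decide the direction either. None of the 4 comparisons between lines in ESC or EBs, and neither test of whether the change from ESC to EBs differed between lines, called any of the 3 genes. These last tests called 5.74% of windows for Jarid2-/- and 0.0644% for the K116A rescue, all of them higher. For Jarid2-/- the difference in that change was -17.8 ± 30.2 points at Nr2f1, -25.4 ± 26.8 at Nr2f2 and -8.16 ± 21.1 at Nr2e1. For the K116A rescue it was -14.4 ± 30.2, -13.6 ± 26.8 and 3.92 ± 21.1, so the data allow large differences in either direction.

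The highest region scores at Nr2f1 and Nr2f2 were also those of the K116A rescue EBs. At Nr2f1 the highest region score was 198 and 301 in the K116A rescue EBs, 80.7 and 71.5 in the WT rescue EBs and 112 and 152 in the Jarid2-/- EBs, and it lay between 62.7 and 96.0 in the 6 ESC libraries. At Nr2f2 the K116A rescue EBs scored 197 and 288, the WT rescue EBs 84.4 and 75.8, and the Jarid2-/- EBs 88.1 and 115. At both genes the K116A rescue EBs scored above the 10 other libraries. At Nr2e1 the scores were 196 and 282 in the K116A rescue EBs, 144 and 110 in the WT rescue EBs and 150 and 207 in the Jarid2-/- EBs, which overlap. Scores are not normalised for depth, and by the study's read totals the K116A rescue EB libraries were deeper than the WT rescue ones; the part of depth in this difference, and in the widths and covered percentages, was not tested. The highest score of any region in the library was 764 and 657 in the K116A rescue EBs and 1083 and 1172 in the WT rescue EBs. Within its own library, the Nr2f1 region scored above 98.8% and 99.6% of the regions in the K116A rescue EBs and above 88.7% and 88.8% in the WT rescue EBs. For Nr2f2 these values were 98.8% and 99.5% against 90.3% and 90.9%, and for Nr2e1 98.7% and 99.4% against 98.6% and 98.0%. Tested as log2 of 10 plus the mean score over the window, the K116A rescue EBs exceeded the WT rescue EBs by 1.71 ± 0.85, 1.88 ± 0.87 and 1.13 ± 0.85, which did not pass (limma, adjusted p = 0.57, 0.53 and 0.75). Both K116A rescue EB libraries exceeded the 10 others in mean score at the 3 genes, as in 5.86% of windows.

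**Figure D4:**
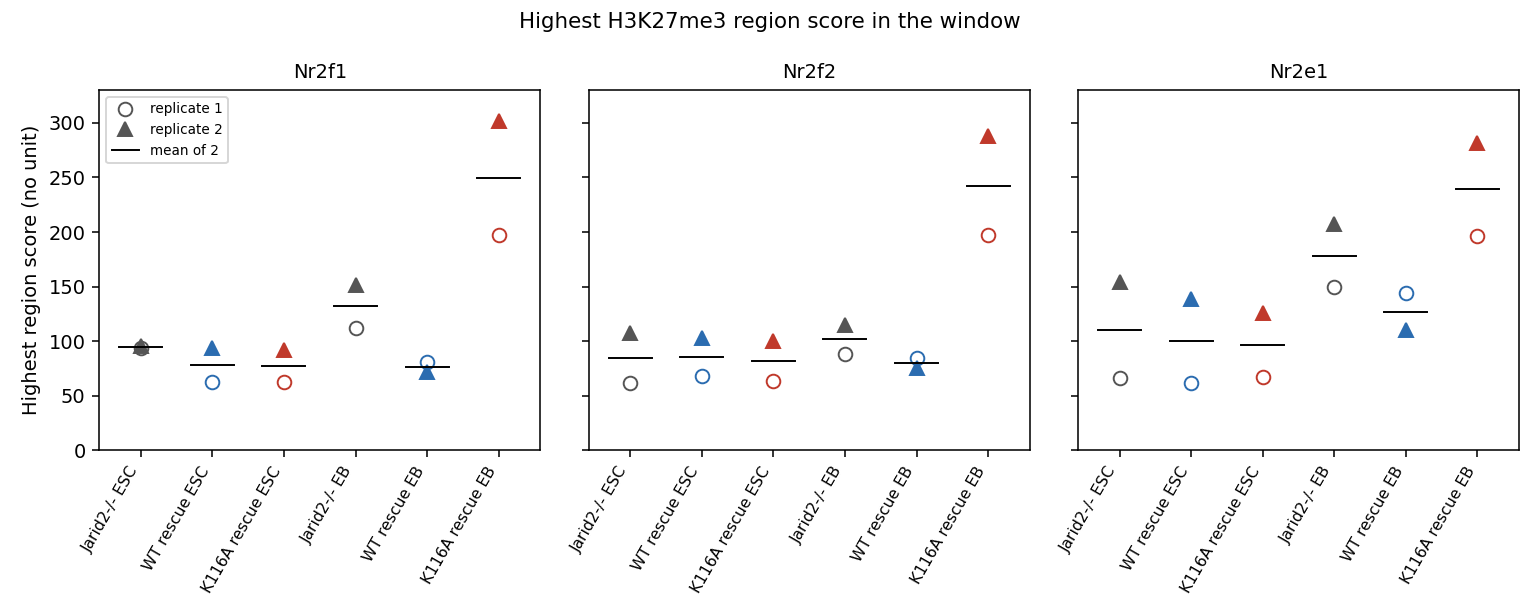
Highest score of an H3K27me3 region in the window at Nr2f1, Nr2f2 and Nr2e1 (y axis, the peak caller's score) in each of 6 groups (x axis). Open circles are replicate 1, filled triangles replicate 2 and lines the mean of the 2. The K116A rescue EBs score 198 and 301 at Nr2f1, where no other library exceeds 152, while at Nr2e1 a Jarid2-/- EB library reaches 207.

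The regions of the K116A rescue EBs were also the widest at the 3 genes. The share of all windows with this pattern was not computed. In ESC the widest regions were those of replicate 2 of the Jarid2-/- cells, with 52983 bp at Nr2f1, 51446 bp at Nr2f2 and 29493 bp at Nr2e1. At Nr2f1 the widest region was 54453 and 56290 bp in the K116A rescue EBs, 33954 and 42310 bp in the WT rescue EBs and 37953 and 52893 bp in the Jarid2-/- EBs. At Nr2f2 it was 59308 and 63200 bp, against 27755 and 25768 bp with WT rescue and 22739 and 21657 bp without rescue. Each K116A rescue EB library had 1 region across the whole Jarid2 domain of Nr2f2, whereas the WT rescue EBs had 3 regions there and the Jarid2-/- EBs 3 and 5. In ESC, replicate 2 of the Jarid2-/- cells was the only library with a single unbroken region at this gene. At Nr2e1 the widest region was 33384 and 38430 bp in the K116A rescue EBs and 27102 and 29004 bp in the WT rescue EBs. Width and score come from the same regions and are not independent measures.

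Some of the breaks between regions fell at the same place in many libraries. At Nr2f1, a stretch of 1344 bp, chr13:78337328-78338671, 347 to 1690 bp downstream of the start and wholly inside exons, was uncovered in 6 of the 12 libraries and covered in the other 6, namely in replicate 2 of Jarid2-/- ESC, WT rescue ESC, Jarid2-/- EBs and WT rescue EBs and in both K116A rescue EBs. At Nr2f2, a stretch of 1240 bp, chr7:77505893-77507132, was covered in only 3 libraries, replicate 2 of Jarid2-/- ESC and both K116A rescue EBs. It lies in the intron of the longer transcript and just upstream of the start of the shorter one. Both stretches lay wholly inside peaks of Jarid2 and of Jarid2-K116me2, and no break was seen there in either list.

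Both stretches were richer in CpG than their flanks. The GC content was 73.0% at Nr2f1, against 41.8% and 46.1% in the 2000 bp on either side, and 71.0% at Nr2f2, against 58.3% and 38.8%. CpG density was 113 per kb at Nr2f1 and 133 at Nr2f2, and in the flanks it was between 13.5 and 58.0 per kb. The ratio of observed to expected CpG was 0.85 and 1.06, where the median Jarid2 peak had 0.57. The 200 bases with the most CpG of each stretch are shown on the minus strand, with each CpG in capitals; those of Nr2f1 are in no UTR.
Nr2f1, chr13:78337611-78337810: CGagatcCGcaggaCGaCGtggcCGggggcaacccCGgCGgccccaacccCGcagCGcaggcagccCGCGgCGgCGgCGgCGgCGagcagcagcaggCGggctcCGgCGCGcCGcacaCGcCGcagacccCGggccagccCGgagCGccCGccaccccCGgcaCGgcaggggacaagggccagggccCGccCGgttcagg
Nr2f2, chr7:77505995-77506194: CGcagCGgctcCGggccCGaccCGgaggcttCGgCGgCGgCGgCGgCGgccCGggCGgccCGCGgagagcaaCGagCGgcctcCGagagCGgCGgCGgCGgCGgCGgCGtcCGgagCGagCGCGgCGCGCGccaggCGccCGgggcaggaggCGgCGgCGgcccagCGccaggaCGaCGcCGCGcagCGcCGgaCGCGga
These hold 31 and 46 CpG. The most CpG-dense 1000 bp of the whole Jarid2 domain overlapped this stretch in both genes, with 130 and 138 CpG. At Nr2e1 the most CpG-dense 1000 bp, 7655 to 8654 bp upstream of the start, held 79 CpG, and 11 of the 12 libraries covered it in full. Other stretches of 500 bp or more were less rich. At Nr2f2, one of 1106 bp, 14950 to 16055 bp downstream of the start and inside peaks of both lists, was covered in 5 libraries and had 60.6 CpG per kb and a GC content of 57.9%. At Nr2f1, one of 1171 bp, 3035 to 4205 bp upstream, was covered in 8 libraries and had 63.2 CpG per kb, and one of 698 bp between Jarid2 peaks, 11241 to 11938 bp downstream, was also covered in 8 and had 12.9. At the outer ends of the Jarid2 domains, where 5 libraries at the least reached, the last 520 bp at Nr2f1 had 34.6 CpG per kb and the last 561 bp at Nr2f2 had 17.8. Low coverage was thus found in CpG-rich and in CpG-poor sequence. Nr2e1 had no such break: 46.6% of its Jarid2 domain was covered in all 12 libraries, against 16.2% at Nr2f1 and 9.58% at Nr2f2. Whether reads from such GC-rich sequence were recovered less often was not tested.

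**Figure D5:**
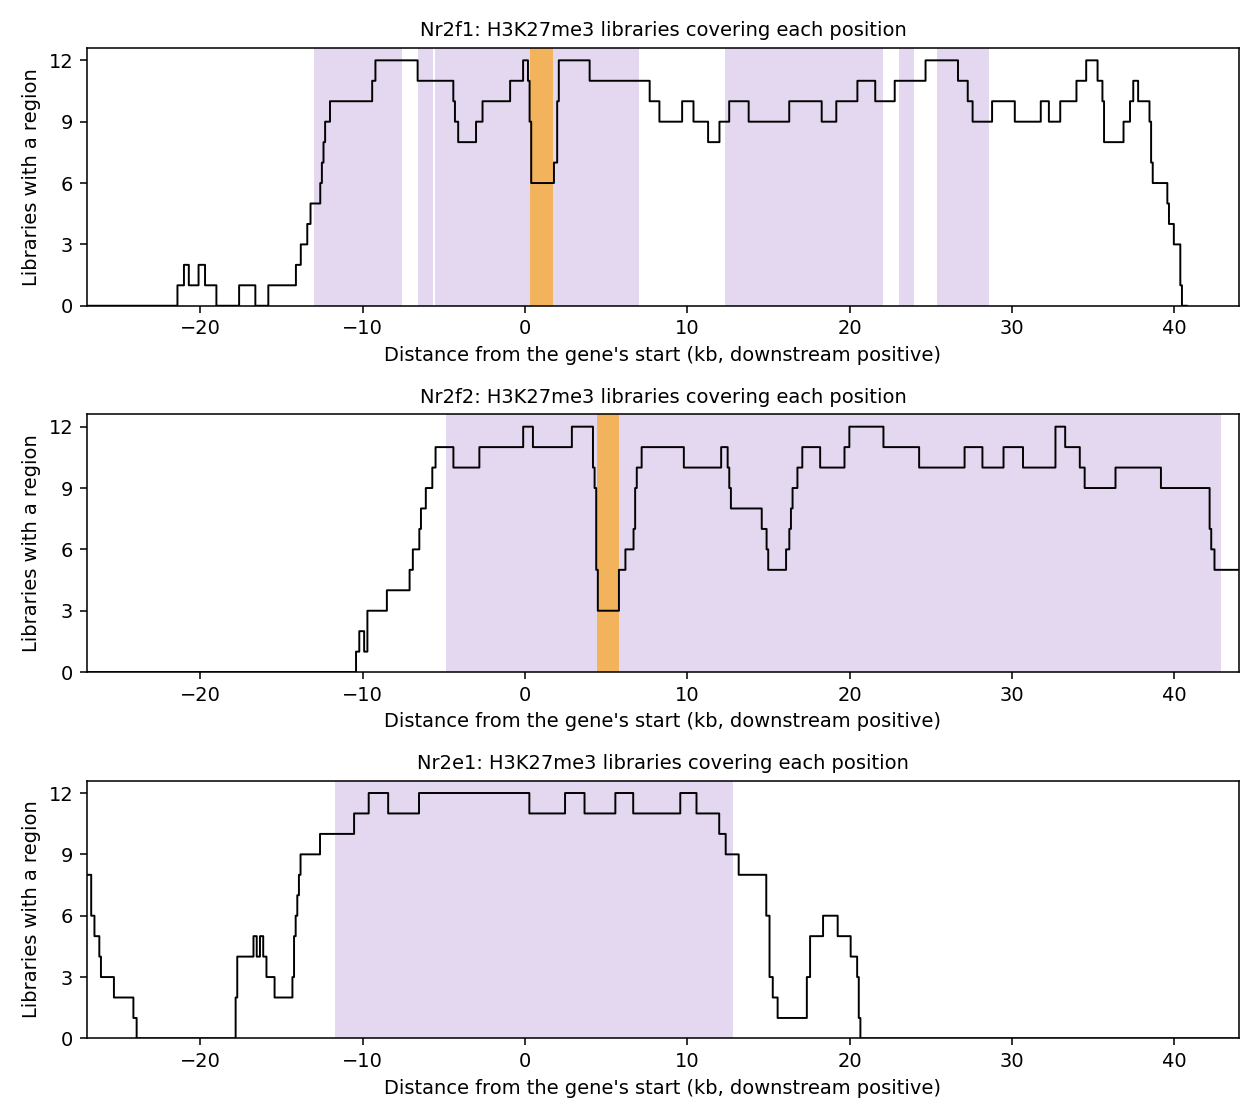
Number of the 12 libraries with an H3K27me3 region at each position (y axis), against the distance from the start of Nr2f1, Nr2f2 and Nr2e1 in kb (x axis). Purple shading marks Jarid2 peaks and orange the stretch described in the text, where the number drops to 6 at Nr2f1 and 3 at Nr2f2. The number also drops to 5 at the upstream end of the Nr2f1 domain and at a second break of Nr2f2, and at Nr2e1 it stays at 9 or more inside the Jarid2 peak.

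The Jarid2 peaks of Nr2f1 also varied in composition. The common peak over its start had an observed to expected CpG ratio of 0.67, the 4 other common peaks had 0.35, 0.44, 0.52 and 0.42, and the 4 Jarid2-only peaks had 0.20, 0.19, 0.30 and 0.06. Their GC content was between 40.6% and 46.7%, which overlapped the 42.8% to 52.2% of the common peaks. In the whole list, the median ratio was 0.59 for common and 0.50 for Jarid2-only peaks, so all 4 lay below the lower quartile of Jarid2-only peaks, which was 0.33. The single peaks of Nr2f2 and Nr2e1 had 0.44 and 0.42.

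Other genes had nearly the same H3K27me3 coverage across the 12 libraries, measured by the mean absolute difference in points. The closest to Nr2f1 was Wnt1, a signalling protein of the developing midbrain, at 3.69 points, followed by Hoxb13 at 5.68 and Hand2, a factor of heart and limb, at 6.55. The closest to Nr2f2 were Pou3f2, a neural factor, at 6.01, Hoxd1 at 6.24 and Tcfap2a, a factor of the neural crest, at 7.60. For Nr2e1 they were Gm9979 at 4.44, Ddn at 4.55 and Barhl2, a retinal factor, at 4.56. Each of these 9 genes had 2 or more Jarid2 peaks. Of all protein-coding genes 24.1% had a Jarid2 peak in such a window, and 72.7% of these had only 1, as did Nr2f2 and Nr2e1. The windows of Gm9979 and Tcfap2a overlap, as do those of Ddn and Wnt1, so these pairs can share regions and peaks and are not separate loci. The libraries differ in how much was called, and this is shared by all windows, so a small difference describes the level and not a common regulation.

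Of the 49 nuclear receptors, 26 had enough coverage to be tested, and 8 were called higher and none lower in EBs than in ESC, against 36.3% and 1.03% of all windows. Named after their values were seen, these were Nr0b1, Nr0b2, Nr1h5, Nr1i3, Nr5a1, Nr5a2, Ppara and Pparg, with Pparg, the master regulator of fat cells, at 9.92 ± 2.20 points (limma, adjusted p = 0.0083). The median difference of the 26 was 2.20 points, that of all windows 3.03. None was called between K116A and WT rescue in ESC or EBs, where 0% of windows were called in ESC, and Nr1h5 and Nr1i3, 2 of 26, were called higher in Jarid2-/- than in WT rescue EBs, against 25.9% of all windows. Nr2f1, Nr2f2 and Nr2e1 were the most covered receptors and not among those that were called.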

How the data were processed

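ChIP-seq peak lists of Jarid2 and Jarid2-K116me2 (1 sample each) and of H3K27me3 (12 libraries) were analysed; the 2 input samples have no list here. Per the study's methods, the authors mapped single-end reads of 100 bp to mm9 with Bowtie2 (1 mismatch in the seed of 22 bp, 1 location for reads with several), removed PCR duplicates, called Jarid2 peaks with MACS at an FDR of 0.15% and H3K27me3 regions with MACS2 in broad mode at an FDR of 5%, each against input and per library. The submitters' processing notes name Bowtie2 2.1.0, MACS 1.4.2, MACS2 2.0.10 and HOMER 3.17. The authors deposited position and score only; the score is not normalised for depth.

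Genes and transcripts came from the GENCODE annotation of NCBIM37, the Ensembl name of mm9, and no listed region ran past a chromosome's end in its genome. Peaks sharing 1 bp or more were called common. H3K27me3 coverage of each gene with 20 kb on each side was fitted with limma 3.58.1 in R 4.3.3 (6 groups, moderated variance with a trend, 7764 windows covered by 1% or more on average, Benjamini-Hochberg adjustment over all windows, called at 0.05); the fit was tested on simulated data. The replicates are biological duplicates per the study's methods, and p-values rest on 2 libraries per group. Each genotype was profiled in a single line, so an effect of genotype and a difference between lines cannot be told apart. The members and lists were chosen with earlier results of these data known. Named by rule were the 3 genes, other genes in their windows, receptors of the NR2 subfamily or with 3 or more Jarid2 peaks, and the 3 protein-coding genes closest to each gene in coverage. Alternatives were other windows, filters, scalings, score limits, the replicate block and each library left out. Composition and sequences were computed from the NCBIM37 genome, with motifs searched on both strands. The promoter sequence of the shorter Nr2f2 transcript is not reported here.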

Additional observations from a re-analysis of the deposited data

How the results depend on the processing

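At the 3 genes together, 11 Jarid2, 18 Jarid2-K116me2 and 4 Jarid2-only peaks became 6, 10 and 2 within 5 kb and 7, 9 and 1 with peaks under 1 kb apart joined; Jarid2-only peaks numbered 7 with 50% overlap and 1 with a score of 200 or more or the same lowest score. Calls of H3K27me3 windows between EBs and ESC (2895) became 1659 within 5 kb of the start, 1836 with the same lowest score and 1367 by rank. For Jarid2-/- against WT rescue EBs (2018) they were 1147 within 5 kb, 1114 scaled to the covered share of the genome, 1201 with the same lowest score, 665 by rank and 566 fitted on 1 stage. For K116A against WT rescue EBs (45) they were 174 scaled and 171 by rank, and in ESC (0) 1 scaled. For the differences between lines in the change from ESC to EBs, Jarid2-/- (446) gave 13 by rank, and K116A (5) gave 0 within 5 kb, 44 scaled, 2 by log2 score and 0 by rank. Same lowest score over the libraries, log2 score, rank and 1 stage were chosen after seeing the data. The causes were not tested.

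Of 417 values at the 3 genes under other settings, 49 changed sign, 2 came to 0 and 3 passed: Nr2f1 and Nr2f2 between EBs and ESC without replicate 2 of the WT rescue ESC, and Nr2f1 by log2 score (1.29 ± 0.49, limma adjusted p = 0.041). Scaling reversed the difference between EBs and ESC at Nr2f1, Nr2f2 and Nr2e1 (-35.4, -40.5, -48.1), Jarid2-/- against WT rescue in ESC at Nr2f1 and Nr2e1 (-21.3, -46.8), K116A in ESC (-7.79, -50.7), Jarid2-/- in EBs at Nr2e1 (-25.3), K116A in EBs at all 3 (-18.1, -8.13, -1.94) and the Jarid2-/- change at Nr2e1 (21.5). Rank, in percentile points, reversed Nr2f2 and Nr2e1 between EBs and ESC (-0.034, -0.31), and Nr2e1 for Jarid2-/- and K116A in ESC (-0.087, -0.074) and Jarid2-/- in EBs (-0.59), and all 3 for K116A in EBs (-0.036, -0.0045, -0.027). Rank leaves little room for a rise at windows that are already among the most covered. Why scaling reversed these signs was not tested. Within 5 kb, Jarid2-/- in EBs was 0.79 at Nr2f2 and 0 at Nr2e1, K116A in EBs 0 at Nr2e1, and the K116A change -17.3 at Nr2e1. By log2 score, Jarid2-/- in EBs was 0.67 at Nr2f1 and 0.12 at Nr2f2, the Jarid2-/- change 0.045 at Nr2f1, and the K116A change 1.06 at Nr2f1 and 0.99 at Nr2f2.

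With libraries left out, calls ranged from 0 to 3864 between EBs and ESC, 0 to 24 (Jarid2-/-) and 0 to 25 (K116A) in ESC, 674 to 2926 and 5 to 150 in EBs, and 0 to 1989 and 0 to 61 for the change. At Nr2f1, Nr2f2 and Nr2e1 the EB to ESC difference ranged from 3.75 to 45.8, -3.84 to 30.2 and -0.91 to 18.1 points. Jarid2-/- in ESC ranged from -17.8 to 49.6, -7.18 to 56.7 and -7.84 to 27.6, and K116A from -10.6 to 56.7, -3.61 to 60.3 and -7.05 to 28.4. In EBs Jarid2-/- ranged from -5.50 to 1.63, -4.58 to 3.38 and -0.51 to 3.95. The Jarid2-/- change ranged from -51.5 to 15.9, -57.3 to 6.58 and -25.9 to 9.56, and the K116A change from -48.0 to 19.3, -45.5 to 18.4 and -13.8 to 21.6.

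With the replicate number as a block, calls were 4328 between EBs and ESC, 3208 and 135 for Jarid2-/- and K116A in EBs, and 980 and 10 for the change; no call at the 3 genes differed. The difference of replicate 2 minus replicate 1 over the windows correlated between groups at 0.073 to 0.82 over 15 pairs of groups. No source states that a number marks a shared culture. Alternatives on q-value and fold enrichment were not run because the lists hold neither.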

Other observations

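Of 9 pluripotency genes, 1, Esrrb, had a Jarid2 peak over or within 1 kb of a transcription start, against 15.4% of all protein-coding genes. Within 20 kb, 2 had a Jarid2 peak, against 24.1%. H3K27me3 coverage of 4 of the 9 reached 1% on average and was tested, of which, named after their values were seen, Klf4 and Sox2, factors of the undifferentiated state, were called higher in EBs than in ESC and none was called lower, against 36.3% and 1.03% of all windows (limma with Benjamini-Hochberg adjustment over all windows). Sox2 was also called higher in Jarid2-/- than in WT rescue EBs, against 25.9% of all windows. The median difference between EBs and ESC over the 4 genes was 3.51 points, that of all windows 3.03.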
